A study of Mus musculus with 6 samples.

Results

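Among the genes of glutathione, peroxiredoxin and thioredoxin metabolism, the B16-BL6 libraries labelled sgNDUFS4 held less mRNA of pi-class glutathione transferases, of the extracellular superoxide dismutase Sod3 and of the cytosolic and mitochondrial peroxiredoxins Prdx1 and Prdx3 than the sgControl libraries. They held more mRNA of the microsomal transferase Mgst3, the theta-class Gstt3, the mu-class Gstm5 and the peroxiredoxin Prdx6. Prdx2 and Prdx4 were also called higher, but not once the change of their genome neighbours was subtracted. Most of the called changes were under 1.5-fold, those of Gstp1, Prdx1, Prdx3 and Prdx6 among them. The genes were taken by symbol: all rows named as glutathione S-transferases of the alpha, kappa, mu, omega, pi, theta and zeta classes, microsomal transferases, glutathione peroxidases, peroxiredoxins, superoxide dismutases and glutaredoxins other than Glrx5, together with Cat, Gsr, Gss, Txn1, Txn2, Txnip, Txnrd2, Txnrd3, Msra and Msrb1 to Msrb3. This gave 58 of the 22535 gene rows.

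B16-BL6 is a mouse melanoma line, an invasive derivative of B16. Polyadenylated RNA was sequenced from 3 libraries of cells carrying a guide RNA against Ndufs4 (sgNDUFS4) and from 3 libraries of cells carrying a control guide (sgControl), both grown in DMEM with serum, pyruvate and antibiotics, with no treatment named. The Ndufs4 protein is part of complex I, where electrons enter the respiratory chain, and the comparison was made to find transcriptional changes related to the immunogenicity of the Ndufs4-edited cells. The labels do not say whether either line is a clone or a pool, nor whether the libraries of a group came from separate cultures, so a p-value here sets the difference against a library spread that may be technical only.

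Superoxide, which leaks from the respiratory chain and is made by NADPH oxidases, is turned into hydrogen peroxide by superoxide dismutases. Peroxides are then removed by catalase, by glutathione peroxidases at the expense of glutathione, and by peroxiredoxins at the expense of thioredoxin. Glutathione reductase and thioredoxin reductases regenerate both reductants with NADPH, and glutathione S-transferases attach glutathione to reactive compounds. Many of these genes are known targets of the transcription factor Nrf2, which binds antioxidant response elements.

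Reads counted in genes numbered 23910781 to 25947374 per library in sgNDUFS4 and 20090607 to 23652793 in sgControl, and levels are given as CPM, the count scaled to a common library size. Ndufs4 itself was at 15.0, 16 and 16.8 CPM in sgNDUFS4 and at 54.3, 55 and 52.4 CPM in sgControl, a log2 fold change of -1.73 (limma, SE 0.076, adjusted p = 5.9e-16), in the direction of the labels. Of 7 melanocyte markers, 7 were present, with a summed level of 14507.7 to 15533.0 CPM in sgNDUFS4 and 15409.2 to 15927.2 CPM in sgControl. Of 7 markers of T, B and NK cells, 5 were at 0 in every library (Cd8a, Nkg7, Cd3d, Cd3e and Ms4a1), and the list summed to 0.335 to 1.05 CPM in sgNDUFS4 and 0.359 to 0.803 CPM in sgControl. Macrophage markers, with none at 0, summed to 5.86 to 14 CPM in sgNDUFS4 and 7.90 to 14.4 CPM in sgControl. The 5 fibroblast markers summed to 41.4 to 46.1 CPM in sgNDUFS4 and 41.8 to 44.1 CPM in sgControl, with Dcn and Lum at 0. All 4 endothelial and all 3 red cell markers were at 0, and the 3 keratinocyte markers summed to at most 0.271 CPM. Mitochondrially encoded transcripts took 3.51% to 3.57% of the reads in sgNDUFS4 and 2.59% to 2.79% in sgControl. Histone genes named Hist, whose mRNA mostly lacks a poly(A) tail, summed to 46.6 to 49.6 CPM in sgNDUFS4 and 27.4 to 32.7 CPM in sgControl. The part of either in the results below was not tested.

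The promoters of 6 members are shown first, to set the sequence before each gene beside the change of its mRNA. They are a selection, and other genes of the opening, such as Gstt3 and Prdx3, are not shown. Each run is the 250 bases before the start of the gene in RefSeq on GRCm38.p6, written along the gene's strand. Capitals mark matches to the antioxidant response element core TGACNNNGC or to the AP-1-like motif TGANTCA on either strand.
Prdx1 (chr4:116685349-116685598, plus strand): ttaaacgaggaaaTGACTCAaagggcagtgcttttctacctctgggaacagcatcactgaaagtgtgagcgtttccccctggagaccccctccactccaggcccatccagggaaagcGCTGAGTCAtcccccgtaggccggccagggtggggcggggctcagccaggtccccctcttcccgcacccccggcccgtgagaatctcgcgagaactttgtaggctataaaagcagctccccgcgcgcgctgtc
Mgst1 (chr6:138140277-138140526, plus strand): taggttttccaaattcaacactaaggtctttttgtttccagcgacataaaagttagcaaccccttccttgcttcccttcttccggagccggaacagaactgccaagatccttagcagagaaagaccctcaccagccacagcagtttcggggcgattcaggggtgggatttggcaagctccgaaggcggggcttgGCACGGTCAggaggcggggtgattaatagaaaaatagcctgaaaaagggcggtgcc
Gstm5 (chr3:107895604-107895853, plus strand): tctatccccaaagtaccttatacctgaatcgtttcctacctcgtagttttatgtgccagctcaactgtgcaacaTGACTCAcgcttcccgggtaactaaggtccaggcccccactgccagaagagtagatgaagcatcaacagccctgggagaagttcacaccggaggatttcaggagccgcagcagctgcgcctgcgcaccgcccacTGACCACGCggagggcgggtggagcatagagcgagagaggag
Gstp1 (chr19:4037913-4038162, minus strand): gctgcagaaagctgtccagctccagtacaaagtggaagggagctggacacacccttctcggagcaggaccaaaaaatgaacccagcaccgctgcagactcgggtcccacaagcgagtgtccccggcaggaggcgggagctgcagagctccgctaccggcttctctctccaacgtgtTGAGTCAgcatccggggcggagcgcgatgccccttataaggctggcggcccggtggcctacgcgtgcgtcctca
Gstp2 (chr19:4042222-4042471, minus strand): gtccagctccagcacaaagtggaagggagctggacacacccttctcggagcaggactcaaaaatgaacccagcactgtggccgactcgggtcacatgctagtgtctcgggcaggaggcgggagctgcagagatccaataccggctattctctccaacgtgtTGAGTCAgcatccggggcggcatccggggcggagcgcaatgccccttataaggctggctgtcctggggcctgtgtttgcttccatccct
Mgst3 (chr1:167393842-167394091, minus strand): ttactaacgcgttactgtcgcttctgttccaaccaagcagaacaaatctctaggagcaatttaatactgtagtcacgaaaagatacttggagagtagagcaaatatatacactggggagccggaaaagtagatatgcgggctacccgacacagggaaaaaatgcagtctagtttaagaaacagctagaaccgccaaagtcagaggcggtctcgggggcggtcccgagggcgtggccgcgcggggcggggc
In the Prdx1 window a TGACNNNGC match on the minus strand began at position -133, counted from the base before the start as -1, and overlapped a TGANTCA match at position -131. A further TGANTCA match stood at position -237. Mgst1, for which RefSeq lists 2 starts and the first by coordinate was used, had a TGACNNNGC match on the minus strand at position -56. The Gstm5 window held TGACNNNGC at position -42 and TGANTCA at position -176. Gstp1 and Gstp2 each held TGANTCA, at positions -74 and -89, in windows that were 88.1% identical over their aligned bases. Neither motif was found in the Mgst3 window. Among the 51 members with a RefSeq promoter, 6 held TGACNNNGC (11.8%), against 11.5% of 27025 genes, and 6 held TGANTCA (11.8%), against 7.82% of these genes. Promoters of Sod3, Msra, Prdx6b, Gsta4, Gsr, Prdx6 and Gstt2 were not used here. Among members not shown, Gsta3, Gstm7 and Sod1 held TGACNNNGC, and Glrx and Mgst2 held TGANTCA. Of these, Gstm7 and Glrx were called higher, Sod1 was called lower, Gsta3 did not pass and Mgst2 was not tested. A match is a description of the letters and not a binding site.

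Of the 58 genes, 45 averaged at least 1 CPM across the 6 libraries and were tested. The other 13 did not exceed 0.93 CPM in any library, and 6 of them had no read at all (Gpx5, Gpx6, Gpx7, Gsta4, Gstp3 and Gstt4). Of these low genes, Mgst2, Gstm3, Gstt1 and Gsto2 reached 0.2 CPM in at least 1 library, and Gpx2, Gpx3 and Prdx6b did not. In limma on log2(CPM + 0.5), with Benjamini-Hochberg adjustment across the 11063 genes tested and 0.05 as the limit, 12 of the 45 were higher in sgNDUFS4 (26.7%, against 31.8% of all genes tested). Lower in sgNDUFS4 were 21 of the 45 (46.7%, against 20.3% of all genes tested), and 12 did not pass, so that 73.3% were called, against 52.0% of all genes tested. The groups did not overlap for 33 of the 45 genes (73.3%, against 57.2% of all genes). Among the 21 is Gstk1, which reached the minimum mean only through the sgControl libraries; without it, 20 of 44 were lower (45.5%) and 12 higher (27.3%). The median log2 fold change of the 45 genes was -0.13, or -0.12 without Gstk1, and that of all genes tested was 0.06. With TMM scaling, which brought the share of higher calls over all genes to 49.2% where it had been 61.1%, 11 of the 45 were higher (against 24.9% of all genes) and 23 lower (against 25.8%), with a median of -0.19. In bulk RNA such as this, fewer cells of a type and less RNA per cell cannot be told apart.

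Most shifts were small. Of the 45 genes, 2 (Sod3 and Gstk1) were called with a change of at least 2-fold on the log2(CPM + 0.5) scale. That is 4.44%, against 3.85% of all genes tested, but Gstk1 reached the minimum mean only through sgControl. The share is therefore not read as a result, and Sod3 stands alone. Gstp2 was at -0.95 on the log2(CPM + 0.5) scale and at -1.01 with TMM scaling. Of the 33 called, 11 changed at least 1.5-fold, and for 13 the larger level exceeded the smaller by less than 25%. Summed over the 58 genes, the level was 5103.0, 5095.7 and 5186.9 CPM in sgNDUFS4 and 5507.4, 5401.4 and 5608.4 CPM in sgControl. The sums of the groups did not overlap, and the mean in sgNDUFS4 was 0.931 of that in sgControl. Gsta1, Gsta2, Gstp1, Gstp2 and Gpx4 shared over 30% of their 50-base stretches with other annotated transcripts, and Sod2, Gstm1, Txnip and Glrx3 shared 21%, 18.9%, 15.7% and 15.1%, so that reads may be split with copies or overlapping genes.

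**Figure D1:**
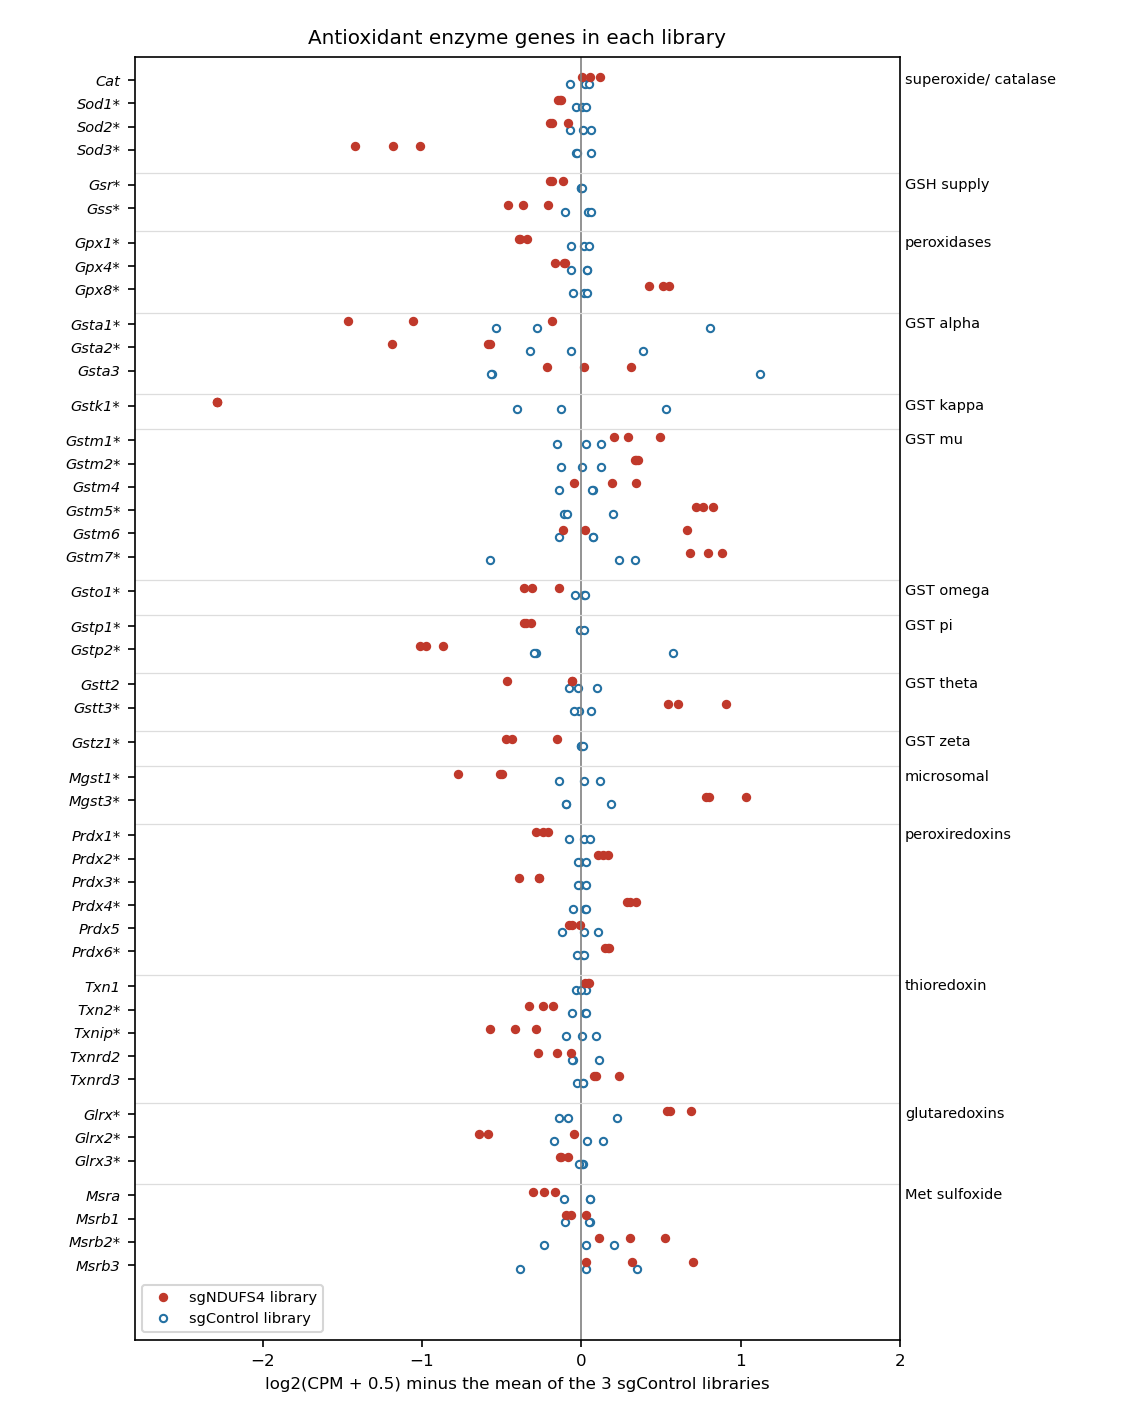
Level of each of the 45 tested genes in each library, as log2(CPM + 0.5) minus the mean of the 3 sgControl libraries, by class (GST, glutathione S-transferase; GSH, glutathione). Filled points are sgNDUFS4 libraries, open points are sgControl libraries, and an asterisk marks an adjusted p under 0.05; Sod3, Gstk1 and Gstp2 lie far to the left of their controls and Mgst3, Gstm5 and Gstt3 to the right.

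Among the superoxide dismutases, the secreted enzyme Sod3 (chromosome 5, 52363791 to 52371418, GRCm38) fell the most. Its level was 10.5, 12.5 and 14.1 CPM in sgNDUFS4 and 30.3, 28.3 and 28.4 CPM in sgControl. The highest sgNDUFS4 library lay below the lowest sgControl library, and the log2 fold change was -1.20 (limma, SE 0.103, adjusted p = 3.1e-10). Sod1, the copper and zinc enzyme of the cytosol, was lower by a much smaller step, at 277.7 ± 1.84 CPM in sgNDUFS4 and 305.1 ± 6.87 CPM in sgControl (SD, n = 3 each, limma adjusted p = 0.0014). The manganese enzyme of the mitochondrial matrix, Sod2, averaged 52.7 ± 2.32 CPM in sgNDUFS4 and 58.7 ± 2.66 CPM in sgControl (SD, n = 3 each, limma adjusted p = 0.03), a call that was lost without any one of the sgControl libraries 1 and 3 or the sgNDUFS4 libraries 1 and 3. Catalase, the peroxisomal enzyme that splits hydrogen peroxide, did not pass, with a log2 fold change of 0.06 (SE 0.051).

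Both enzymes of the set that make or regenerate glutathione were lower. Gss, which adds glycine in the last step of glutathione synthesis, was at 28.9, 30.9 and 34.5 CPM in sgNDUFS4 and at 41.2, 41.8 and 37.2 CPM in sgControl. Those groups did not overlap, and the log2 fold change was -0.35 (limma, SE 0.077, adjusted p = 0.00047). Its exons overlap Acss2 on the other strand, and the reads carry no strand, so the genes' reads cannot be told apart there. Glutathione reductase, Gsr, averaged 143.0 ± 4.39 CPM in sgNDUFS4 and 160.5 ± 0.237 CPM in sgControl (SD, n = 3 each, limma adjusted p = 0.0011).

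Of 8 glutathione peroxidase genes, 3 were tested, and these moved in both directions. Gpx1, a selenoenzyme of the cytosol and mitochondria (chromosome 9, 108338903 to 108340343), was at 77.4, 79.9 and 77.5 CPM in sgNDUFS4 and at 102.8, 96.9 and 104.7 CPM in sgControl. All sgNDUFS4 libraries lay below all sgControl libraries, with a log2 fold change of -0.37 (limma, SE 0.049, adjusted p = 4.7e-07). Gpx4, which reduces lipid hydroperoxides in membranes and restrains ferroptosis, fell slightly in the test, with a log2 fold change of -0.13 (limma, SE 0.036, adjusted p = 0.0052), but was at 0.01 once centred on its genome neighbours, that is, once the median change of the 50 nearest tested genes was subtracted. Of its 50-base stretches, 34.7% also occur in the pseudogene Gpx4-ps2, so its reads may be split. Gpx8, a peroxidase of the endoplasmic reticulum, was at 47.9, 52.4 and 51.0 CPM in sgNDUFS4 and at 36.1, 34.3 and 36.5 CPM in sgControl. Here every sgNDUFS4 library was the higher, and the log2 fold change was 0.50 (limma, SE 0.065, adjusted p = 5.3e-07), although centring on its neighbours left 0.04.

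The glutathione S-transferases of the 7 cytosolic and mitochondrial classes held 22 rows, of which 16 were tested, 5 being higher and 7 lower, Gstk1 among them (all genes tested: 31.8% higher and 20.3% lower). The pi class, with the highest level per kb of exon among them, was lower. Gstp1 (chromosome 19, 4035407 to 4037985) was at 451.1, 447.9 and 462.0 CPM in sgNDUFS4 and at 571.3, 570.6 and 581.7 CPM in sgControl. The spread within each group was small against this gap, and the log2 fold change was -0.34 (limma, SE 0.029, adjusted p = 3.4e-10). Its neighbour Gstp2 (chromosome 19, 4040285 to 4046023) was at 18.2, 19.6 and 17.7 CPM in sgNDUFS4 and at 54.2, 29.7 and 29.4 CPM in sgControl. One sgControl library stood well above the other two, yet all 3 lay above every sgNDUFS4 library, with a log2 fold change of -0.95 (limma, SE 0.140, adjusted p = 3e-06). Gstp2 shares 54.3% of its 50-base stretches with other genes and Gstp1 33.7%, including each other and the pseudogene Gstp-ps, so the split between them is uncertain. Summed, both with the untested Gstp3 were at 469.3, 467.5 and 479.7 CPM in sgNDUFS4 and 625.5, 600.3 and 611.1 CPM in sgControl, or 0.771 of the sgControl level.

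Gstk1, the kappa-class transferase of mitochondria and peroxisomes (chromosome 6, 42245935 to 42250447), was the only tested member without a read in a whole group. It had 0, 0 and 0 reads in the sgNDUFS4 libraries and 27, 41 and 67 reads in the sgControl libraries, or 1.34, 1.73 and 3.01 CPM. Against a floor of 3 reads per library, which covers counting error only, the sgNDUFS4 level was at least 17-fold lower. Its mean of 1.01 CPM over all libraries passed the minimum only through sgControl, so no p is given for it.

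In the alpha class, known for conjugating products of lipid peroxidation, levels were low and the libraries spread widely. Gsta1 was at 8.60, 4.47 and 3.24 CPM in sgNDUFS4 and at 17.6, 8.03 and 6.64 CPM in sgControl. The groups overlapped, and the log2 fold change of -0.90 (limma, SE 0.262, adjusted p = 0.0055) lost its call without sgControl library 1 or without sgNDUFS4 library 3. Gsta2 was at 1.20, 1.21 and 0.617 CPM in sgNDUFS4 and at 1.54, 2.83 and 1.93 CPM in sgControl. These did not overlap, and the log2 fold change of -0.78 (limma, SE 0.276, adjusted p = 0.02) lost its call without sgControl library 2 or sgNDUFS4 library 3. Gsta1 shares 90.5% and Gsta2 49.8% of its 50-base stretches with other genes, including each other, so neither is certain alone. Gsta3 did not pass, at 1.17 ± 0.309 CPM in sgNDUFS4 and 1.40 ± 1.39 CPM in sgControl (SD, n = 3 each).

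The mu class, which conjugates epoxides and other electrophiles, had 4 higher members, of which Gstm5 was still called higher when centred on its genome neighbours, and the other 2 tested did not pass. Its 7 genes lie within 149.1 kb of chromosome 3. Gstm5 (chromosome 3, 107895821 to 107898686) was at 29.0, 29.9 and 31.2 CPM in sgNDUFS4 and at 16.1, 16.3 and 20 CPM in sgControl. The groups were well apart, with a log2 fold change of 0.77 (limma, SE 0.092, adjusted p = 1.2e-07). Gstm7 was at 3.1, 3.64 and 3.39 CPM in sgNDUFS4 and at 2.14, 1.01 and 2.33 CPM in sgControl. Its groups did not overlap either, and the log2 fold change of 0.78 (limma, SE 0.240, adjusted p = 0.008) lost its call without sgControl library 2. Gstm1, with the highest level of the class per kb of exon, was at 87.3, 92.8 and 106.9 CPM in sgNDUFS4 and at 77.3, 68.2 and 82.4 CPM in sgControl. Gstm2 was at 66.7, 65.9 and 66.0 CPM in sgNDUFS4 and at 47.5, 52.2 and 56.6 CPM in sgControl. Both were higher in every sgNDUFS4 library than in any sgControl library, with log2 fold changes of 0.33 (limma, SE 0.066, adjusted p = 0.00016) for Gstm1 and 0.35 (limma, SE 0.061, adjusted p = 3.9e-05) for Gstm2. Gstm4 and Gstm6 did not pass, at log2 fold changes of 0.16 (SE 0.181) and 0.19 (SE 0.257).

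In the theta class Gstt3 (chromosome 10, 75774115 to 75781414) was at 9.45, 7.57 and 7.21 CPM in sgNDUFS4 and at 4.73, 5.03 and 4.62 CPM in sgControl. Every sgNDUFS4 library was above every sgControl library, with a log2 fold change of 0.69 (limma, SE 0.154, adjusted p = 0.00056). It overlaps the gene model Gm20441 on the same strand, with which 12.2% of its 50-base stretches are shared. Gstt2 did not pass (log2 fold change -0.20, SE 0.278). Gstz1, which also acts in tyrosine breakdown, was at 14.9, 15.3 and 18.7 CPM in sgNDUFS4 and at 20.8, 20.8 and 21.0 CPM in sgControl. It was lower in all sgNDUFS4 libraries, with a log2 fold change of -0.35 (limma, SE 0.1, adjusted p = 0.0044), and its exons overlap Pomt2 on the other strand. The omega-class Gsto1, which also removes glutathione from proteins, was lower, at 81.9 ± 6.67 CPM in sgNDUFS4 and 98.6 ± 2.26 CPM in sgControl (SD, n = 3 each, limma adjusted p = 0.00015).

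The microsomal transferases, membrane proteins unrelated in sequence to the classes above, moved in opposite directions. Mgst1, which protects membranes of the endoplasmic reticulum and mitochondria from lipid peroxides (chromosome 6, 138140316 to 138156755), was at 10.6, 12.8 and 12.9 CPM in sgNDUFS4 and at 18.7, 16.7 and 20.1 CPM in sgControl. Mgst3, a family member that also has glutathione peroxidase activity (chromosome 1, 167371966 to 167393841), was at 15.5, 15.7 and 18.5 CPM in sgNDUFS4 and at 8.21, 8.20 and 10.1 CPM in sgControl. Neither gene's groups overlapped. The log2 fold change was -0.59 for Mgst1 (limma, SE 0.111, adjusted p = 7.6e-05) and 0.87 for Mgst3 (limma, SE 0.121, adjusted p = 1.3e-06), the largest rise among the 45 genes. Their sum was 29.1 ± 2.60 CPM in sgNDUFS4 and 27.9 ± 2.66 CPM in sgControl with the untested Mgst2 included (SD, n = 3 each), a difference smaller than the spread.

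**Figure D2:**
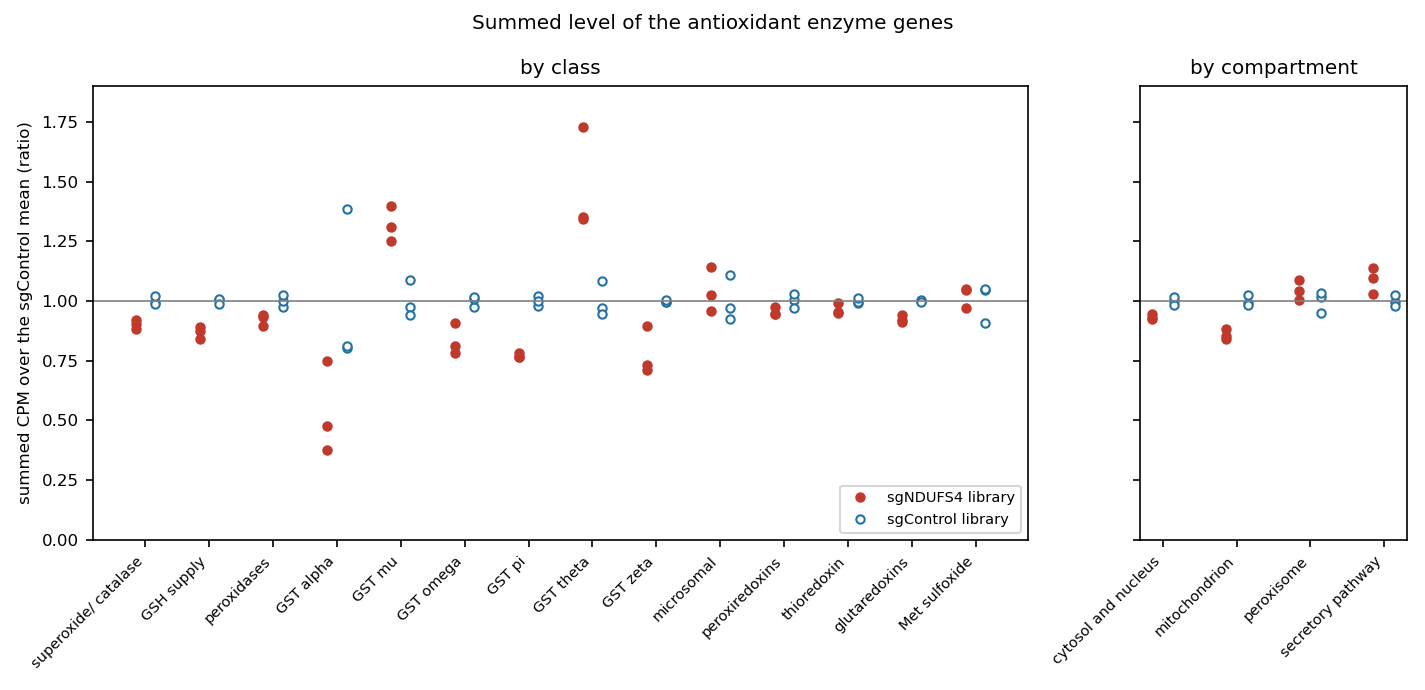
Summed CPM of the genes of each class and each cell compartment in each library, divided by the mean of the 3 sgControl libraries; filled points are sgNDUFS4 and open points sgControl, and the kappa class, with no read in sgNDUFS4, is left out. The pi class sits at 0.771 and the mitochondrial enzymes at 0.860 on average in sgNDUFS4, the mu class at 1.32, and the peroxiredoxins, at 0.956, stay close to 1. The alpha class, at 0.534, and the theta class, at 1.47, lie furthest from 1, at low summed levels of 14.3 and 6.19 CPM in sgControl.

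Peroxiredoxins, thiol peroxidases present in nearly every compartment, also split by member. Prdx1, an enzyme of the cytosol and nucleus, was at 941.6, 968.4 and 990.4 CPM in sgNDUFS4 and at 1160.9, 1087.9 and 1188.7 CPM in sgControl. Prdx2, its close relative, was at 591.1, 578.0 and 603.9 CPM in sgNDUFS4 and at 535.2, 528.9 and 548.8 CPM in sgControl. Neither pair of groups overlapped, and the genes stood on opposite sides: Prdx1 was lower (log2 fold change -0.24, limma, SE 0.031, adjusted p = 2.4e-07), and Prdx2 was higher (0.14, limma, SE 0.030, adjusted p = 0.0004) but at -0.06 once centred on its neighbours. The exons of Prdx2 overlap Junb and Rnaseh2a on the other strand. The mitochondrial Prdx3 was lower, at 136.1 ± 6.77 CPM in sgNDUFS4 and 168.4 ± 2.82 CPM in sgControl (SD, n = 3 each, limma adjusted p = 1.2e-06). Prdx4, the form of the endoplasmic reticulum, was higher, at 65.5 ± 1.29 CPM in sgNDUFS4 and 52.6 ± 1.63 CPM in sgControl (SD, n = 3 each, limma adjusted p = 3.7e-05), with a centred adjusted p of 0.053. Prdx6, which has a single catalytic cysteine, was higher at 404.1 ± 3.82 CPM in sgNDUFS4 and 360.4 ± 6.21 CPM in sgControl (SD, n = 3 each, limma adjusted p = 8e-05). Prdx5 did not pass, at a log2 fold change of -0.05 (SE 0.060), and its exons overlap Trmt112 on the other strand.

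Of the thioredoxin system, Txn1, the cytosolic electron donor, showed no change that passed. It was at 472.1, 464.7 and 473.6 CPM in sgNDUFS4 and at 447.6, 467.3 and 458.0 CPM in sgControl. One sgNDUFS4 library lay within the sgControl range, and the log2 fold change of 0.04 (limma, SE 0.030, adjusted p = 0.29) turned to -0.02 with TMM scaling, whereas with quantile scaling the gene was called higher, at 0.09 (limma, adjusted p = 0.018). Its mitochondrial counterpart Txn2 was lower, at 130.1 ± 6.98 CPM in sgNDUFS4 and 154.6 ± 5.32 CPM in sgControl (SD, n = 3 each, limma adjusted p = 4.6e-05), but at -0.03 once centred on neighbours that were themselves at -0.18. Txnip, an arrestin-like protein that binds thioredoxin and limits glucose uptake (chromosome 3, 96557957 to 96561883), was at 42.8, 35.0 and 39.1 CPM in sgNDUFS4 and at 55.8, 48.9 and 52.5 CPM in sgControl. It fell in all sgNDUFS4 libraries, by 0.43 on the log2 scale (limma, SE 0.072, adjusted p = 2.2e-05). The thioredoxin reductases Txnrd2, of mitochondria, and Txnrd3 did not pass, at log2 fold changes of -0.16 (limma, SE 0.072, adjusted p = 0.056) and 0.14 (limma, SE 0.068, adjusted p = 0.093).

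Glutaredoxins, which use glutathione to reduce or carry protein thiols and iron-sulfur clusters, gave 1 higher and 2 lower genes. Glrx, the dithiol enzyme of the cytosol (chromosome 13, 75839868 to 75850154), was at 6.55, 7.32 and 6.63 CPM in sgNDUFS4 and at 4.08, 3.89 and 5.16 CPM in sgControl. The groups were apart, with a log2 fold change of 0.60 (limma, SE 0.162, adjusted p = 0.0033). The mitochondrial Glrx2 was at 8.68, 8.32 and 12.8 CPM in sgNDUFS4 and at 11.7, 14.6 and 13.6 CPM in sgControl. Here 1 sgNDUFS4 library overlapped the sgControl range, and the log2 fold change of -0.43 (limma, SE 0.140, adjusted p = 0.013) lost its call without sgControl library 2, sgNDUFS4 library 1 or sgNDUFS4 library 2. Glrx3, which takes part in iron-sulfur protein assembly, was lower by a small step, at 308.7 ± 6.26 CPM in sgNDUFS4 and 334.2 ± 2.73 CPM in sgControl (SD, n = 3 each, limma adjusted p = 0.0044).

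Methionine sulfoxide reductases, which repair oxidised methionine with electrons from thioredoxin, gave 1 call among 4 tested genes. Msrb2, of mitochondria, was called higher at 14.2 ± 2.13 CPM in sgNDUFS4 and 11.3 ± 1.76 CPM in sgControl (SD, n = 3 each, limma adjusted p = 0.042), but the groups overlapped, and the call was lost without sgControl library 1 or 2, or sgNDUFS4 library 1 or 3, and under most other settings. Msra, Msrb1 and Msrb3 did not pass, at log2 fold changes of -0.24 (SE 0.116), -0.04 (SE 0.093) and 0.35 (SE 0.248).

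By compartment, the enzymes of mitochondria had 5 lower genes and 1 higher of 8 tested, with a median log2 fold change of -0.21, where 20.3% of all genes tested were lower and 31.8% higher. When centred on their neighbours, 4 of the 8 were lower: Gstk1, Sod2, Prdx3 and Glrx2. Gstk1 is among both the 5 and the 4 and enters the median, although it reached the minimum mean only through sgControl. The uncentred calls of Sod2 and Glrx2 were lost when single libraries were left out. Summed, they were at 454.0, 433.8 and 439.7 CPM in sgNDUFS4 and at 509.8, 505.9 and 528.6 CPM in sgControl, without overlap. The secretory pathway, here the endoplasmic reticulum and secreted enzymes, had 3 higher and 2 lower of 6 tested, and the cytosol and nucleus 8 higher and 14 lower of 30, against the same shares over all genes. Compartments were assigned from textbook knowledge, with 1 main compartment per gene.

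Divided by exon length to compare genes, Txn1 was the most abundant transcript, at 447.3 CPM per kb in sgNDUFS4 and 435.4 CPM per kb in sgControl. Prdx1 followed, at 317.7 CPM per kb in sgNDUFS4 and 376.6 CPM per kb in sgControl. Gstp1 was the third, at 293.1 CPM per kb in sgNDUFS4 and 371.2 CPM per kb in sgControl, and in sgControl it stood close to Prdx1. Prdx2 was at 193.8 CPM per kb in sgNDUFS4 and 176.3 CPM per kb in sgControl, and Gpx4 at 150.7 CPM per kb in sgNDUFS4 and 164.6 CPM per kb in sgControl.

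Several of the rises shared their place in the genome with rises of unrelated genes. On chromosomes 3 and 13 (Ndufs4 lies on chromosome 13), 6 of 9 tested members were higher and 1 was lower, with a median log2 fold change of 0.35. On the other chromosomes 6 of 36 were higher and 20 lower, with a median of -0.17, where all genes tested had 31.8% higher, 20.3% lower and a median of 0.06. Within 3 Mb of the mu-class cluster, 25 of 38 other tested genes were higher (65.8%) and 2 lower (5.26%), with a median of 0.28. Around Glrx the counts were 22 higher (75.9%) and 2 lower (6.9%) of 29, with a median of 0.46. Gpx8 lies 1.24 Mb from Ndufs4, and of 14 other tested genes around it 11 were higher (78.6%), with a median of 0.47. The 1 lower gene (7.14%) was Ndufs4 itself, the target of the guide.

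**Figure D3:**
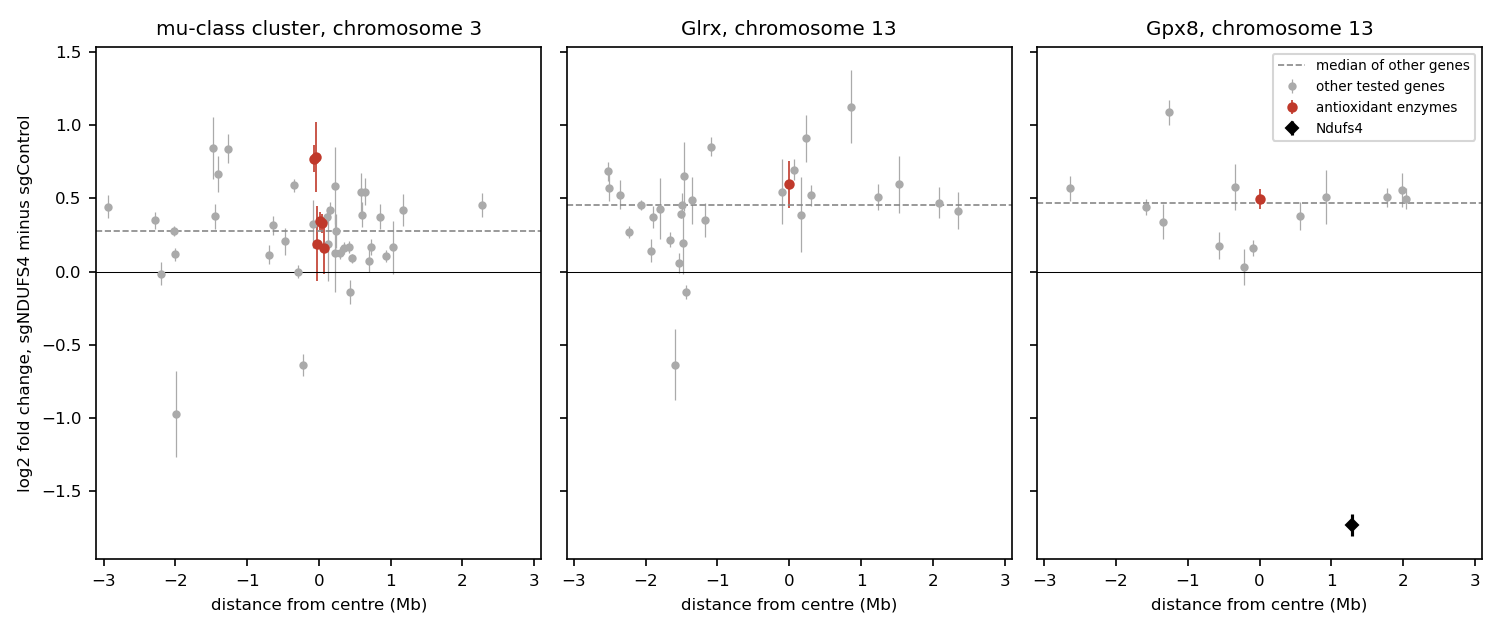
Log2 fold change, sgNDUFS4 minus sgControl, with its standard error, of every tested gene within 3 Mb of the mu-class cluster, of Glrx and of Gpx8, against distance in Mb from the centre. Antioxidant genes are red, Ndufs4 is the black diamond, and the dashed line is the median of the other genes (0.28, 0.46 and 0.47); Gstm5 and Gstm7 stand above it while Gpx8 lies close to it.

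When each gene was centred on the median of its 50 nearest tested neighbours, 4 members were higher (8.89%, against 21.6% of 10928 genes with a position) and 20 were lower (44.4%, against 21.9%). Mgst3, Gstt3, Gstm5 and Prdx6 were those still higher, with centred log2 fold changes of 0.86, 0.66, 0.50 and 0.19 and limma adjusted p of 2.9e-06, 0.0011, 0.00012 and 9.4e-05. Gstm1, Gstm2, Gpx8 and Glrx were at 0.05, 0.07, 0.04 and 0.16 after centring and did not pass. Gstm7 was at 0.51, with an adjusted p of 0.096. Txnip moved against its surroundings: its neighbours had a median of 0.27, and its centred log2 fold change was -0.71 (limma adjusted p = 3.2e-08). Sod3, Gstp2 and Mgst1 had centred values of -1.30, -0.91 and -0.64, close to the uncentred ones.

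**Figure D4:**
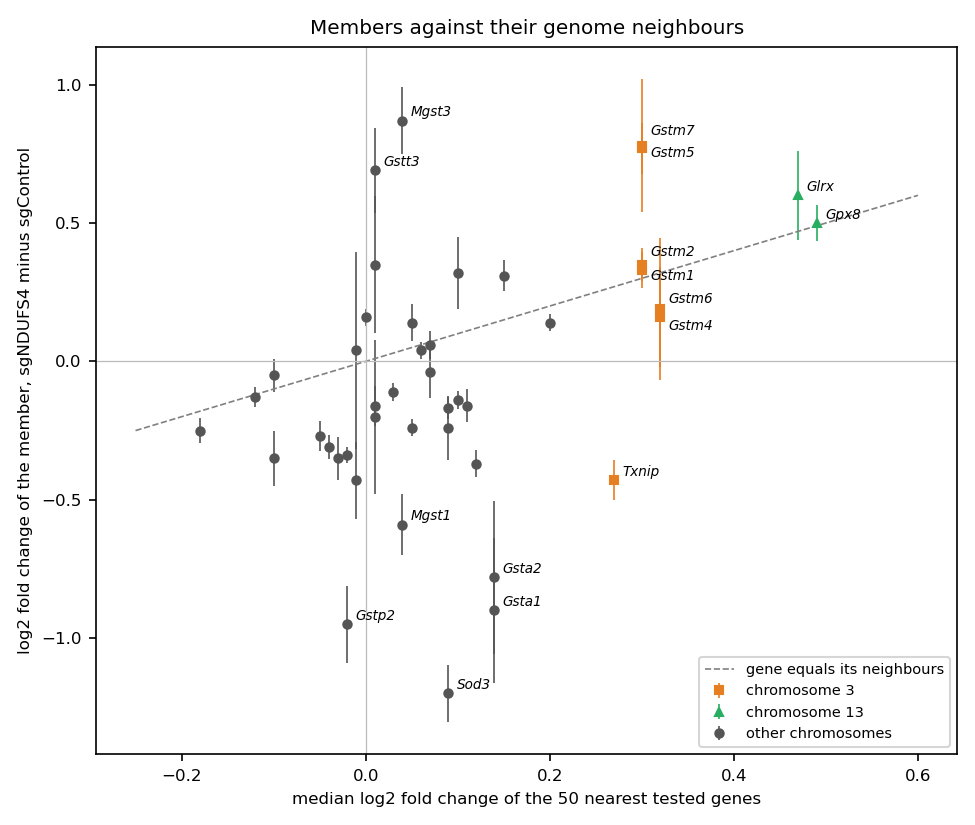
Log2 fold change of each tested member, sgNDUFS4 minus sgControl, with its standard error, against the median log2 fold change of its 50 nearest tested genes; the dashed line marks equality, and Gstk1, at 0 reads in sgNDUFS4, is left out. Gpx8, Glrx and the mu-class genes lie to the right, around 0.30 to 0.49, with Gpx8 on the line, whereas Txnip lies far below it and Mgst3, Gstt3 and Sod3 stand far from it at neighbour medians of 0.04, 0.01 and 0.09.

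The genes that supply these enzymes were examined as lists, each set beside all genes tested, of which 31.8% were higher and 20.3% lower, with a median log2 fold change of 0.06. In glutathione synthesis, cystine supply and turnover, 2 of 16 tested genes were higher (12.5%) and 4 lower (25%), with a median of 0.02. Gclm, the modifier subunit of the rate-limiting glutamate-cysteine ligase, was lower at 34.7 ± 1.46 CPM in sgNDUFS4 and 49.3 ± 1.22 CPM in sgControl (SD, n = 3 each, limma adjusted p = 4.4e-07). Gclc, the other subunit of the ligase, did not pass, at 62.5 ± 2.49 CPM in sgNDUFS4 and 60.6 ± 1.57 CPM in sgControl (SD, n = 3 each). Glo1, a glyoxalase that uses glutathione against methylglyoxal, and Ggct, which degrades gamma-glutamyl peptides, were lower (log2 fold changes -0.22 and -0.31, limma adjusted p = 0.00031 and 0.01). Hagh, the second glyoxalase, was higher (log2 fold change 0.27, limma adjusted p = 0.023), with a centred adjusted p of 0.077. Slc3a2, a chain of the cystine transporter, did not pass at 283.6 ± 12 CPM in sgNDUFS4 and 288.6 ± 4.79 CPM in sgControl (SD, n = 3 each). Slc7a11, the other chain, was called higher at 4.12 ± 1.13 CPM in sgNDUFS4 and 2.51 ± 0.697 CPM in sgControl (SD, n = 3 each, limma adjusted p = 0.025). The groups of Slc7a11 overlapped, and its centred log2 fold change was 0.24 (limma adjusted p = 0.41).

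Among 16 tested genes of NADPH supply, 5 were higher (31.2%, against 31.8% of all genes) and 7 lower (43.8%, against 20.3%), with a median of -0.06. Pgd, of the pentose phosphate pathway, was at 246.2, 246.9 and 238.9 CPM in sgNDUFS4 and at 462.2, 462.4 and 460.8 CPM in sgControl. It was far apart from its control group, with a log2 fold change of -0.92 (limma, SE 0.032, adjusted p = 3.2e-18). G6pdx, the first enzyme of that pathway, was lower by 1.06 on the log2 scale (limma adjusted p = 1.1e-18), but its neighbours on chromosome X had a median of -0.86 and its centred value was -0.19. The folate enzyme Mthfd1 was lower (log2 fold change -0.33, limma adjusted p = 5.4e-08). Nnt, the mitochondrial transhydrogenase on chromosome 13, was higher (log2 fold change 0.48, limma adjusted p = 3.9e-08) and had a centred log2 fold change of 0.03. Mthfd1l did not pass (log2 fold change -0.05, SE 0.040).

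Thioredoxin-fold relatives outside the set had 6 higher and 6 lower of 20 tested, 30% in each direction (against 31.8% and 20.3% of all genes), with a median of 0.15. Txnrd1, the cytosolic thioredoxin reductase that recharges Txn1, was at 561.2, 585.4 and 554.2 CPM in sgNDUFS4 and at 818.4, 800.6 and 766.2 CPM in sgControl. No sgNDUFS4 library came near the sgControl range, and the log2 fold change was -0.49 (limma, SE 0.031, adjusted p = 7.7e-13). Srxn1, sulfiredoxin, which repairs overoxidised peroxiredoxins, was lower at 31.7 ± 1.04 CPM in sgNDUFS4 and 46.9 ± 1.21 CPM in sgControl (SD, n = 3 each, limma adjusted p = 1.1e-07). Glrx5, a mitochondrial iron-sulfur glutaredoxin, was lower (log2 fold change -0.50, limma adjusted p = 2.3e-06). Txndc5, a disulfide isomerase of the endoplasmic reticulum on chromosome 13, was higher (log2 fold change 0.42, limma adjusted p = 6.3e-10) and had a centred log2 fold change of 0.06. Txndc9 did not pass (log2 fold change 0.03, SE 0.053).

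Of 16 tested antioxidant transcription factors and regulators, 4 were higher and 4 lower, 25% in each direction (against 31.8% and 20.3% of all genes), with a median of -0.01. Sqstm1, an autophagy receptor that binds the Nrf2 inhibitor Keap1, was lower at 2142.1 ± 40.1 CPM in sgNDUFS4 and 3208.2 ± 34.5 CPM in sgControl (SD, n = 3 each, limma adjusted p = 7.9e-17). Foxo4, on chromosome X, was lower (log2 fold change -1.02, limma adjusted p = 6.1e-12) and had a centred log2 fold change of -0.01. Foxo1, of a family known to drive Sod2 and Cat, was higher (log2 fold change 0.86, limma adjusted p = 1.8e-07) and had a centred log2 fold change of 0.48, and the coactivator Ppargc1a was higher (log2 fold change 0.46, limma adjusted p = 5.6e-05). Nfe2l2, the gene of Nrf2, and Keap1 were lower (log2 fold changes -0.11 and -0.30, limma adjusted p = 0.032 and 0.00018). Their centred values were -0.22 and -0.37. Hif1a did not pass (log2 fold change 0.05, SE 0.038).

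Selenium enters Gpx1, Gpx4, Txnrd2, Txnrd3 and Msrb1 as selenocysteine. Of 11 tested genes that make it possible, 4 were lower (36.4%, against 20.3% of all genes) and 7 did not pass, with a median of -0.07. Scly, which frees selenium from selenocysteine, was at 123.6 ± 3.07 CPM in sgNDUFS4 and 200.3 ± 5.74 CPM in sgControl (SD, n = 3 each, limma adjusted p = 1.5e-13). Eefsec, the elongation factor for selenocysteine, was at 124.8 ± 2.94 CPM in sgNDUFS4 and 163.2 ± 1.88 CPM in sgControl (SD, n = 3 each, limma adjusted p = 1.2e-08). Lrp8, a receptor that takes up selenoprotein P, was lower (log2 fold change -0.55, limma adjusted p = 2.7e-05), and Rpl30, a ribosomal protein that binds the selenocysteine insertion element, was lower (log2 fold change -0.16, limma adjusted p = 0.00019) with a centred value of -0.05. Sephs1 did not pass (log2 fold change -0.11, SE 0.050). Other selenoproteins had 5 higher (45.5%, against 31.8% of all genes) and 3 lower (27.3%, against 20.3%) of 11 tested, with a median of -0.03. Selenop, which carries selenium between cells, and Selenok, of the endoplasmic reticulum, were higher (log2 fold changes 0.49 and 0.42, limma adjusted p = 2.2e-05 and 3.3e-05). Selenoh and Selenoo were lower (log2 fold changes -0.32 and -0.31, limma adjusted p = 0.00066 and 0.0015). Once centred, Selenoh was at -0.40 (limma adjusted p = 0.00023), and Selenoo was at -0.12 and did not pass (limma adjusted p = 0.2). Selenow did not pass (log2 fold change -0.06, SE 0.068).

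Txnip regulators and arrestin relatives gave 1 higher gene of 5 tested (20%, against 31.8% of all genes), with a median of 0.10. This was Arrdc3, an arrestin relative on chromosome 13, with a log2 fold change of 0.86 (limma, SE 0.150, adjusted p = 3e-05) and a centred one of 0.44, whereas Mlx, a partner of the glucose-sensing factors that drive Txnip, did not pass (log2 fold change 0.10, SE 0.063). Sources of superoxide and peroxide, with the copper supply of Sod1, had 3 higher and 3 lower of 12 tested, 25% in each direction (against 31.8% and 20.3% of all genes), with a median of 0.01. Pcyox1, a lysosomal oxidase that releases peroxide, was higher (log2 fold change 0.28, limma adjusted p = 3.7e-06). Acox3, a peroxisomal oxidase, was higher (log2 fold change 0.51, limma adjusted p = 0.0019). Nox4, an NADPH oxidase, was higher at 4.48 ± 0.173 CPM in sgNDUFS4 and 2.58 ± 0.223 CPM in sgControl (SD, n = 3 each, limma adjusted p = 0.0032).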

How the data were processed

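CPM for 22535 gene rows were deposited, made by the authors from the reads in genes of each library. Per the submitters' processing notes, HISAT2 and GRCm38 are the tool and build named, and sequencing did not keep the strand, per the labels' protocols. The authors' own fold changes and p-values were not used. The counting tool and its annotation were not given in the sources used here. CPM were whole multiples of 1 read in 99.99% to 100% of values above 0 (tolerance 0.01 reads), and on the reads so recovered edgeR's quasi-likelihood test called 2723 genes higher and 2860 lower. The floor of 3 reads is 0.116 to 0.149 CPM per library.

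The main test was limma 3.58.1 in R 4.3.3 with a mean-variance trend on log2(CPM + 0.5), for genes averaging at least 1 CPM, two-sided, with Benjamini-Hochberg adjustment over 11063 genes at 0.05. The fit holds the 6 libraries without a block. Fold changes on this scale understate low genes. The test was run on simulated counts in which few genes changed, in both directions. That simulation does not cover changes as widespread as those in these libraries. Positions, exon lengths and overlaps came from GENCODE M21 on GRCm38, and promoters from RefSeq on GRCm38.p6, matched by symbol. Sharing was counted over 50-base stretches of annotated transcripts. Alternatives were edgeR 4.0.16, DESeq2 1.42.0, TMM and quantile scaling, pseudocounts of 0.1 and 1, no filter or at least 5 CPM, no trend, centring on 50 neighbours, a replicate block, and each library left out.

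Members with a mean of at least 1 CPM are named, with each library's value for called members whose larger level exceeds the smaller by at least 25%, and for the 3 of the rest with the highest mean CPM. Lower ones are named at 0.2 CPM in a library, and others when a count of 5 or fewer or a list of zeros called for it. Each supply list names up to 4 called genes with the smallest p and the most abundant gene not passing. Gclc, Slc7a11, Nfe2l2 and Keap1 are named in addition. A few genes taken by this rule are left out of the text. The members and lists were chosen with earlier results of these data known.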

Additional observations from a re-analysis of the deposited data

How the results depend on the processing

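Of the 33 called members, 18 kept their call in each of the 17 alternatives in which they were tested: Prdx6, Mgst3, Gstm5 and Gstt3 as higher, and Gss, Gsr, Gpx1, Gstz1, Sod1, Sod3, Gstk1, Gstp1, Gstp2, Gsto1, Mgst1, Prdx1, Prdx3 and Txnip as lower. Gstk1 is listed although it reached the minimum mean only through sgControl. Leaving out 1 library gave 10 to 12 higher and 18 to 20 lower members and medians from -0.15 to -0.11. Centring on neighbours left 4 higher members. The members' median was -0.19 with TMM scaling and -0.20 with edgeR and DESeq2. The cause of the following changes was not tested. Txnrd2 and Msra passed as lower with TMM and quantile scaling, edgeR and DESeq2. Msra also passed without a trend and when centred (-0.34, adjusted p 0.021), Txnrd2 without sgNDUFS4 replicate 1, and Txn1 passed as higher with quantile scaling (0.09, adjusted p 0.018). Sod2, Gpx4, Gsta1, Glrx2, Glrx3 and Msrb2 lost their calls without a trend, Gsta1, Glrx2 and Msrb2 without a filter, and Gsta1 and Msrb2 with DESeq2. Centring turned round Cat (-0.0017), Gpx4 (0.01), Gstm4 (-0.12), Gstm6 (-0.10), Prdx2 (-0.06), Prdx5 (0.04) and Txn1 (-0.05). Txn1 was at -0.02 with TMM scaling, edgeR and DESeq2. Gsta3 was at -0.01 with a pseudocount of 1, -0.0029 with TMM scaling, -0.32 with edgeR and -0.31 with DESeq2. Leaving out 1 library gave Gsta3 from -0.24 to 0.60, Gstm6 from -0.04 to 0.34 and Prdx5 from -0.11 to 0.0033. In the glutathione supply list 1 gene was higher without a filter, at 5 CPM, with TMM scaling, without a trend, with edgeR and with DESeq2, and 0 with quantile scaling or centring. Leaving out 1 library gave 0 to 2 higher and 2 to 4 lower there. The NADPH list had 3 higher with DESeq2 or centring, and selenoprotein synthesis 1 higher without a trend. Other selenoproteins had 3 higher with TMM scaling, without a trend, with edgeR, DESeq2 or centring, and 3 to 5 higher and 2 to 4 lower on leaving out 1 library. The Txnip list had 1 to 2 higher, superoxide sources 2 to 3 lower and thioredoxin-fold relatives 5 to 8 higher and 4 to 6 lower in those fits. Same-numbered libraries did not deviate together (r 0.0559, 0.0121 and 0.0972), so the numbers were not taken as pairs. With the replicate block 12 members were higher and 21 lower, as without it, and 2 of the 3 sgNDUFS4 libraries correlated best with their own number. Depth limits genes under 1 CPM: a level under 0.116 to 0.149 CPM rests on fewer than 3 reads in a library.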
